A study of Mus musculus with 16 samples.

Results

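The mouse ileum was examined here for 36 genes of the cell cycle and of DNA replication. They were chosen by name from what they are known to do, with earlier results of these data known. All 36 were found among the 21965 genes of the count table, and all 36 were among the 13811 genes that passed the filter on low counts. RNA of the terminal ileum was sequenced from 16 male mice on a C57BL/6 background, aged 8 to 10 weeks at the start of 6 weeks of feeding. Wild type (WT) and fat-1 littermates received a Lieber-DeCarli liquid diet with ethanol (EtOH), raised stepwise to 6% by volume, or were pair-fed (PF) a control liquid diet. The fat-1 mice were heterozygous (Fat1+/-) for an n3 fatty acid desaturase of Caenorhabditis elegans that is driven in all tissues and converts n6 to n3 polyunsaturated fatty acids. The transgene is not a mouse gene and was not analysed here. The WT mice numbered 4 on the PF and 3 on the EtOH diet and the fat-1 mice 4 and 5, each with 1 library, and the comparisons asked what EtOH and the fat-1 transgene changed.

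In the small intestine, stem cells at the crypt base and the transit-amplifying cells above them divide, while the enterocytes of the villus do not. Cyclin E and E2F factors start S phase, a helicase built from the MCM proteins opens the origins loaded by Cdc6 and Cdt1, and polymerases with Pcna copy the DNA. Cyclins A and B with Cdk1 then drive mitosis, the spindle checkpoint holds the chromosomes until they are attached, and the anaphase-promoting complex with Cdc20 releases them. The 36 genes fell into 17 of G1/S and S phase (3 of G1/S control, 10 of origin licensing and helicase, 4 of DNA synthesis and nucleotide supply) and 19 of G2 and mitosis (7 mitotic cyclins and kinases, 4 of the checkpoint and the anaphase-promoting complex, 8 of chromosomes, centromere and spindle). Germinal centre B cells divide as well, and in bulk tissue fewer dividing cells and less RNA per cell cannot be told apart.

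The promoters of both sets are shown first because they carry different short elements. The 36 genes matched 29 genes and 30 windows of RefSeq promoters (GRCm38.p6), each 250 bases before to 50 bases after a start. The motifs searched, on both strands, were the cell cycle homology region (CHR, TTTGAA), the E2F site (TTTCCCGC, TTTGGCGC, TTTCGCGC or TTTGCCGC) and the CCAAT box. The CHR was in 11 of 15 windows of G2 and mitosis genes and in 2 of 15 of G1/S and S-phase genes, against 17.893% of all 32851 promoter windows. The E2F site was in 1 of 15 and 6 of 15, against 2.265% of all windows, and all 6 were among the 9 windows of origin licensing and helicase genes. CCAAT was in 14 of 15 and 10 of 15, against 37.408%. Between different motifs 1 pair of matches overlapped, and 3 pairs of matches to the same motif did. The upstream stretches of 6 genes, up to 200 bases each, follow, on the strand of the gene and cut where the gene's own GENCODE M21 model begins, with matches to the 3 motifs in capitals. The cut leaves out a CCAAT of Cdc20 and a CHR of Cdk1 that lie next to the RefSeq start. The first 4 are of genes of mitosis, Cdc20 (chr4:118437353-118437543, minus strand), Cdk1 (chr10:69352939-69353112, minus), Mki67 (chr7:135716380-135716579, minus) and Top2a (chr11:99024190-99024389, minus). The other 2 are of helicase genes, Mcm5 (chr8:75109309-75109508, plus) and Mcm6 (chr1:128359706-128359905, minus).
Cdc20: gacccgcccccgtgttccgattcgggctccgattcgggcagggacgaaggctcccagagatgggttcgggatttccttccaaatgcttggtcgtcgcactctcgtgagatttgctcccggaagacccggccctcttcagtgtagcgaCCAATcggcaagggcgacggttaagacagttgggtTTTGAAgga
Cdk1: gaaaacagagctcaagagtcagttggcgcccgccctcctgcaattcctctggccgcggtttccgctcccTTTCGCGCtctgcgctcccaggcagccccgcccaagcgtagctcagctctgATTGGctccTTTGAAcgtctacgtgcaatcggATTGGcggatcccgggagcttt
Mki67: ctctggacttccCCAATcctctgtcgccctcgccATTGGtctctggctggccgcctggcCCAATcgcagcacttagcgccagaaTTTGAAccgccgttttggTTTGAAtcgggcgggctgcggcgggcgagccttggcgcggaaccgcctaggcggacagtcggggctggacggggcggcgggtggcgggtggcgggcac
Top2a: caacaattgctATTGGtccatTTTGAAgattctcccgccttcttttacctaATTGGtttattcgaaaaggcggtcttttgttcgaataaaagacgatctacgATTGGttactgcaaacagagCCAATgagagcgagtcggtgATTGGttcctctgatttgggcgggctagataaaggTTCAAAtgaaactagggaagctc
Mcm5: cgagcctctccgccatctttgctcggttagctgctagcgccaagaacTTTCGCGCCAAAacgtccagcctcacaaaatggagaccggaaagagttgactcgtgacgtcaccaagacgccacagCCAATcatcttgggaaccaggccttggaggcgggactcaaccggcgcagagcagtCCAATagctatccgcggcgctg
Mcm6: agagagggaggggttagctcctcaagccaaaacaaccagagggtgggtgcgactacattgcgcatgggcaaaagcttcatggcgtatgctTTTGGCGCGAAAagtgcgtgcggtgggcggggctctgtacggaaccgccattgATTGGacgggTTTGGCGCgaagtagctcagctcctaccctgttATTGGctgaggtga
In these stretches the CHR was seen in all 4 mitosis genes and in neither helicase gene, and the E2F site in Mcm5, Mcm6 and Cdk1. A match describes the letters only, and no binding was measured.

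Between 8422645 and 11438539 reads per library were counted on genes, so that 3 counts were 0.262 to 0.356 CPM before scaling. Several libraries carried the markers of another stretch of gut. The 10 markers of the proximal small intestine summed to between 1922 and 52284 CPM (a gene's counts over the library size, which was scaled by the trimmed mean of M-values, TMM, times 1000000) in PF and to between 22.6 and 438.8 CPM in EtOH libraries. Their mean log2 CPM did not overlap between the diets (4.25 to 9.39 against -0.12 to 2.10), so that the position of the segment cannot be told apart from the diet. Of these 10, 5 were lower in WT EtOH and all 10 in fat-1 EtOH than in PF mice in edgeR's quasi-likelihood test, against 0.0724% and 18.8% of all genes called lower. The 10 markers of enterocytes, the absorptive cells of the villus, summed to between 29635 and 43239 CPM in PF and to between 2465 and 28648 CPM in EtOH libraries. Their mean log2 CPM did not overlap either (10.76 to 11.44 against 6.37 to 10.71), and 0 of 10 were called in WT and 5, all lower, in fat-1 mice. Large intestine markers (9 of 13 in the table) had a mean of 8.06 in WT EtOH 2, 8.40 in fat-1 EtOH 3 and 8.19 in fat-1 EtOH 4, against 3.98 to 5.46 in the other 13 libraries, and these 3 libraries are called marker-rich below. WT EtOH 2 held the markers of small intestine too, with a mean of 10.35 for enterocytes, 9.44 for Paneth cells and 7.52 for the ileum, whereas in fat-1 EtOH 3 and 4 the first 2 of these means were far lower (6.37 and 6.54 for enterocytes, 3.54 and 3.57 for Paneth cells). The 7 ileum markers were lowest in fat-1 PF 2 (4.26) and fat-1 PF 4 (3.73), where Slc10a2, the ileal bile acid transporter, was at 7.58 and 3.56 CPM. The 10 smooth muscle markers were at 6.83 to 7.38 in PF and at 7.65 to 8.58 in EtOH libraries. B-cell and T-cell markers were highest in fat-1 EtOH 5 (6.02 and 4.46). In no group was a marker of any list at 0 in all libraries, and the 10 markers of all epithelium lay between 9.72 and 10.49. The part of these differences in the results below was not tested, but counts are given without the libraries concerned.

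Of the members, Pcna had the highest level per kilobase of exon (29.2 ± 2.8 CPM per kb, SD, n = 16), followed by Ccnb2 (18.01 ± 4.53), Ccna2 (16.4), Cdc20 (15.8 ± 4.6) and Ube2c (15.6). Neighbours in this order from Ccnb2 to Ube2c lay within 1 SD of each other. Cdc6 (1.38), Gins2 (1.88), Cenpe and E2f1 (both 2.2) were lowest. Of the exon bases of Gins2, 67.3% are shared with Gse1, and of those of Ccna2 12.5% with Exosc9, each on the other strand, so that reads of these genes may be mixed where strand was not used in counting. Summed over all 36 genes, the libraries held between 890 and 1600 CPM.

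**Figure D1:**
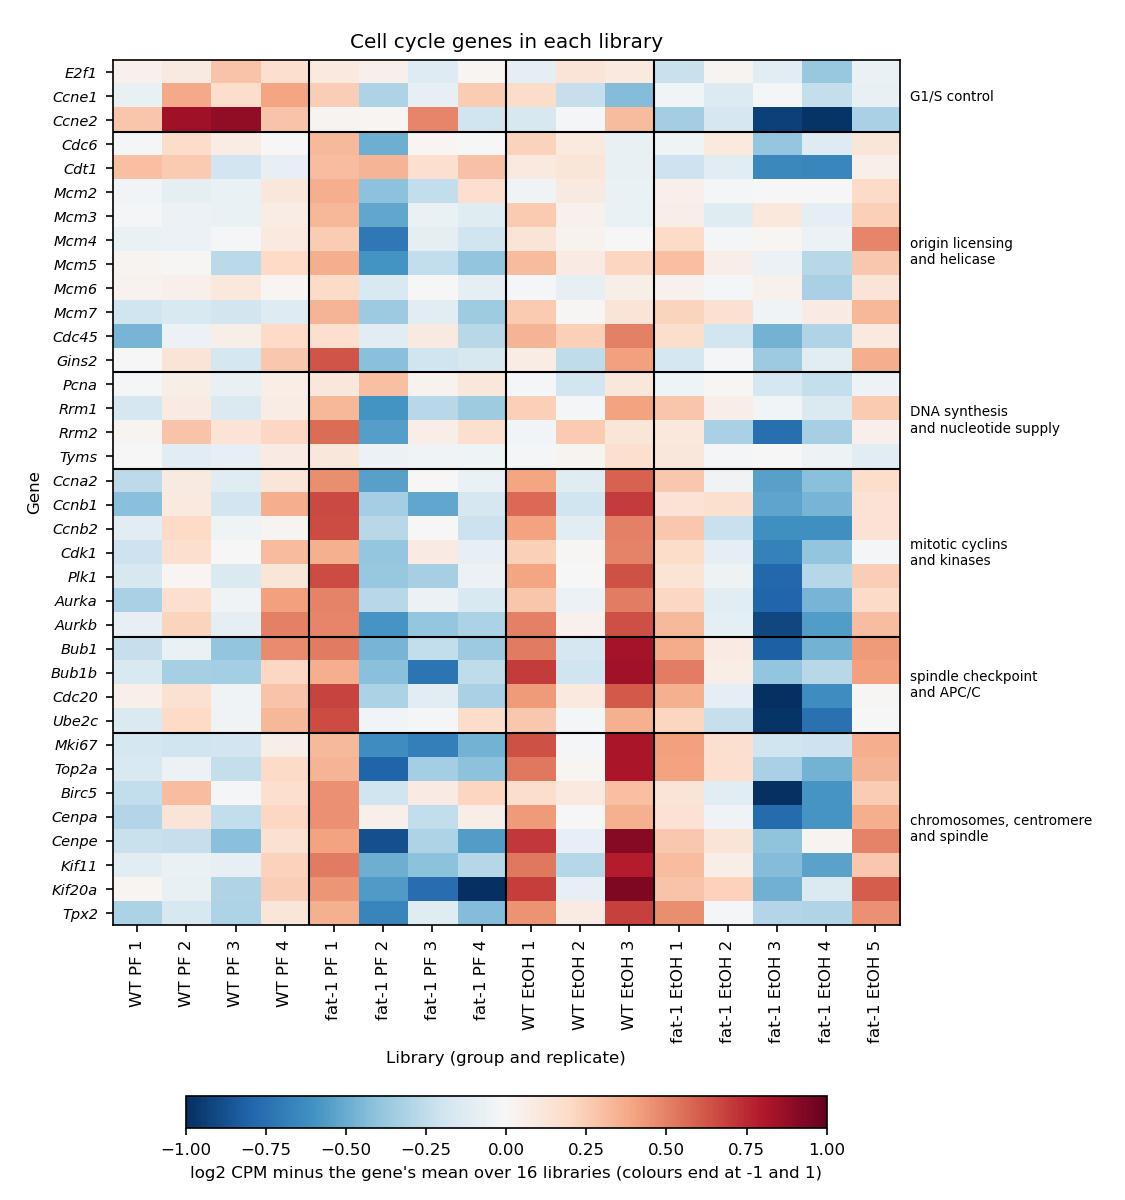
Log2 CPM of the 36 genes (one line each, ordered by role) in the 16 libraries (columns, ordered by group), as the deviation from the mean of each gene over all libraries. WT EtOH 3 holds the highest value of 16 genes and fat-1 PF 1 of 14, whereas fat-1 EtOH 3 holds the lowest of 13 and fat-1 PF 2 of 12.

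The genes of G2 and mitosis moved together from library to library more than those of S phase did. After each gene's mean in each group was subtracted, the median correlation of log2 CPM between 2 members across the 16 libraries was 0.66 over 630 pairs. It was 0.89 within G2 and mitosis (171 pairs, all positive) and 0.40 within G1/S and S phase (136 pairs, 124 positive). Aurkb, the kinase of the chromosomal passenger complex, followed the mean of the other members most closely (r = 0.98), then Top2a (0.97). E2f1 (0.20), Ccne2 (0.36), Ccne1 (0.40), Cdt1 (0.40) and Pcna (0.41) followed it least. These values share libraries and scaling and are a description. Within groups, the SD of log2 CPM was 0.37 in the median G2 and mitosis gene and 0.22 in the median G1/S and S-phase gene, against 0.28 over all genes tested. Tyms, the thymidylate synthase, varied least (0.08) and Bub1 of the spindle checkpoint most (0.48).

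This variation set libraries of a group apart. The mean log2 CPM of the 19 G2 and mitosis genes was highest in WT EtOH 3 (5.50), fat-1 PF 1 (5.34) and WT EtOH 1 (5.32). It was lowest in fat-1 EtOH 3 (4.21), fat-1 PF 2 (4.42) and fat-1 EtOH 4 (4.42). The high and the low libraries thus came from both diets. Of the 3 marker-rich libraries, WT EtOH 2 was at 4.80, the lowest of its group. The 15 crypt base stem cell markers ran from 4.40 in fat-1 PF 2 to 5.11 in WT EtOH 3, the libraries with a low and the highest mitosis mean. Their sum was 786 to 1020 CPM in PF and 757 to 1351 CPM in EtOH libraries. The germinal centre B-cell markers were highest in fat-1 EtOH 5 (3.25, against 1.47 to 2.57 elsewhere), whose mitosis mean was 5.13.

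**Figure D2:**
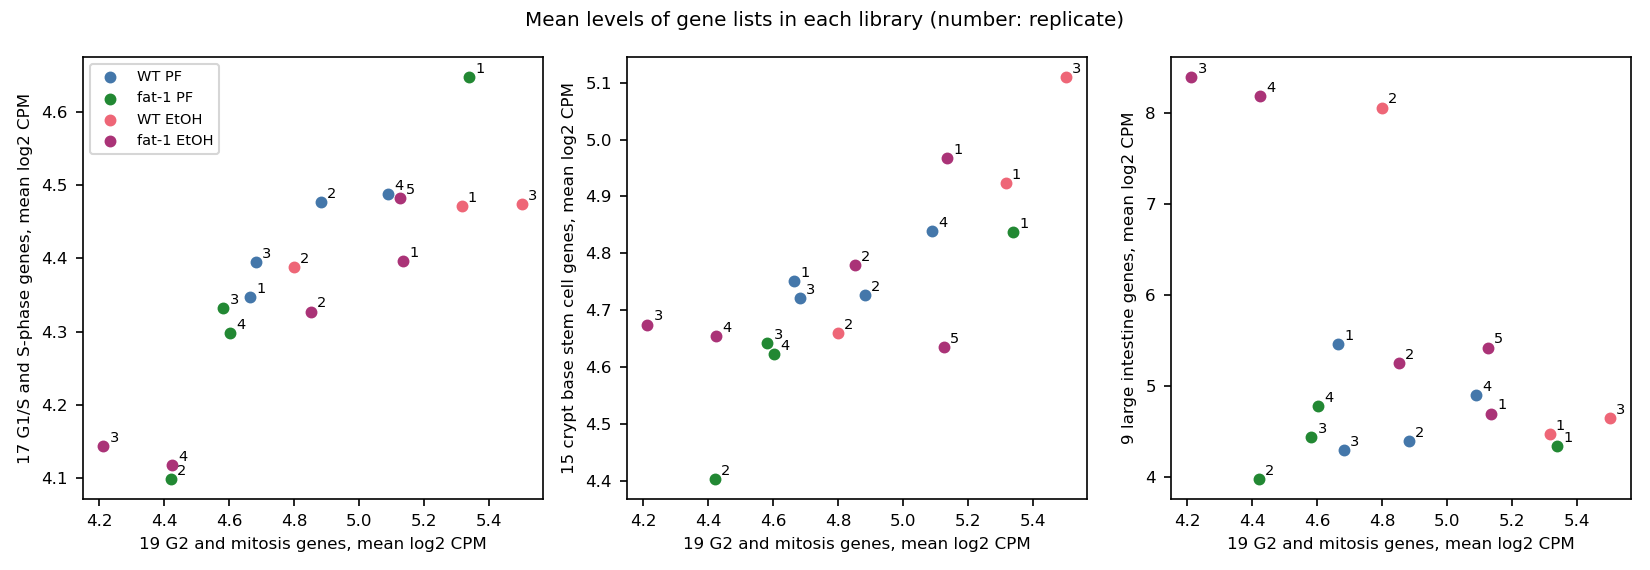
Mean log2 CPM of gene lists in each of the 16 libraries, with 1 point per library in the colour of its group. The horizontal axis of each panel holds the 19 G2 and mitosis genes. The vertical axes hold the 17 G1/S and S-phase genes, the 15 crypt base stem cell markers and the 9 large intestine markers (1 panel each). WT EtOH 3 (5.50) and fat-1 PF 1 (5.34) lie at the right and the marker-rich fat-1 EtOH 3 (4.21) and 4 (4.42) at the left.

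In WT mice, the 19 genes of G2 and mitosis all had a positive log2 fold change with EtOH, but none of the 36 genes passed the test. The mean of the enterocyte markers was at 10.76 to 11.31 in these PF and at 10.35 to 10.53 in these EtOH libraries, and its part in the result was not tested. Among all genes tested, 0.0796% were called in this comparison, and the median log2 fold change was 0.41 for the 19 G2 and mitosis genes, 0.03 for the 17 others and 0.01 for all genes tested. The first median was 0.23 without WT EtOH 3 and 0.56 without WT EtOH 2, with 19 of 19 positive in each fit that left out 1 library. At an unadjusted p under 0.05 there were 6 members, 5 higher (Mki67, Cenpe, Tpx2, Bub1b and Cdc45) and 1 lower (Ccne2), where 14.1% of all genes reached it. This number was 1 without WT EtOH 1 or WT EtOH 3, 2 without WT PF 2 or 3, 4 without WT PF 1 or fat-1 EtOH 2 and 9 without WT EtOH 2 or fat-1 PF 1. DESeq2 also called 0, against 2.11% of all genes. Limma voom with quality weights called 13 (12 higher, 1 lower) where it called 20.3% of all genes. The largest value was that of Cenpe, the centromere motor that carries chromosomes to the spindle equator (0.74 ± 0.29, SE, adjusted p = 0.284), and the smallest that of Ccne2, cyclin E2 (-0.55 ± 0.24, adjusted p = 0.323). Medians by role were -0.38 for G1/S control (0 of 3 positive), 0.05 for licensing (8 of 10), 0.02 for DNA synthesis (2 of 4), 0.27 for the mitotic cyclins and kinases (7 of 7), 0.38 for the checkpoint (4 of 4) and 0.57 for chromosomes and spindle (8 of 8).

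In fat-1 mice, 3 genes of G1/S and S phase fell with EtOH, namely Ccne2, Cdt1 and Pcna, and no member rose. Against these 3 of 36, 37.4% of all genes tested were called (18.8% lower). None of the 3 was called without the 3 marker-rich libraries. Cdt1 alone was called without fat-1 PF 2, fat-1 EtOH 3 or fat-1 EtOH 4 (28.5%, 30.2% and 33.2% of all genes). Without fat-1 PF 1, 9 members were called, 7 higher and 2 lower, against 37% of all genes, with 25 of 36 positive. Limma voom called Mki67 higher and Cdt1 lower, against 26.4% of all genes. The part of the low enterocyte and Paneth cell markers of fat-1 EtOH 3 and 4 (10.10 to 11.44 and 8.44 to 10.76 in the other 14 libraries) was not tested. The median log2 fold change was -0.05 for the 17 genes of G1/S and S phase, with 6 positive, and -0.07 for the 19 of G2 and mitosis, with 9 positive, against 0.05 for all genes. With upper-quartile scaling the 2 medians were 0.09 and 0.07, and leaving out 1 library gave 0.07 and 0.27 (fat-1 PF 1) to -0.12 and -0.15 (fat-1 PF 2), so that their direction is not fixed. Upper-quartile scaling called 2 members higher and 1 lower, against 41% of all genes, and moved the median of all genes from 0.05 to 0.20. Kif20a, a mitotic kinesin of cytokinesis, had the largest value (0.51 ± 0.30, adjusted p = 0.197), with 29.3% of its exon bases shared with Cdc23 on the other strand. Medians by role ran from -0.16 for G1/S control to 0.28 for chromosomes and spindle, where 6 of 8 genes were positive.

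Averaged over the genotypes, Mki67, Cenpe and Mcm7 rose and Ccne2 fell. These 4 of 36 stand against 35.9% of all genes tested. Mcm7 lost its call in 12 of 28 alternatives, Cenpe in 10, Mki67 in 3 and Ccne2 in 2. Without WT EtOH 1 the adjusted p was 0.106 for Mcm7, 0.0851 for Cenpe and 0.0538 for Mki67, and without WT EtOH 3 it was 0.0737, 0.111 and 0.07. Leaving out WT PF 1, 2 or 3 or fat-1 PF 2, 3 or 4 also ended the calls of Mcm7 and Cenpe (0.0512 to 0.0666), as did leaving out WT PF 4 for Mcm7 (0.0507) and fat-1 EtOH 5 for Cenpe (0.0503). Of the 17 genes of G1/S and S phase 8 were positive (median -0.01) and of the 19 of G2 and mitosis 16 (median 0.14, from 0.07 without WT EtOH 3 to 0.30 without fat-1 PF 1). Upper-quartile scaling gave 9 calls, 8 higher and 1 lower, in place of 3 and 1, where it called 38.7% of all genes. It moved the all-gene median from 0.04 to 0.14. Both single-genotype comparisons are parts of this one and share its libraries.

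The marker-rich libraries bear on these counts. Without WT EtOH 2, fat-1 EtOH 3 and fat-1 EtOH 4, which leaves the EtOH groups with 2 WT and 3 fat-1 mice, the G2 and mitosis median was 0.56 in WT (19 of 19 positive), 0.18 in fat-1 (17 of 19) and 0.38 on average (19 of 19). Calls were then 0 in WT, where 0.189% of all genes were called, and 1 in fat-1, Mki67 (0.64 ± 0.21, adjusted p = 0.0356), where 29.7% were. On average 11 were called, 10 higher and 1 lower, against 32.9% of all genes. Of these 11, Mki67 (0.75 ± 0.15, adjusted p = 0.00376), Bub1b (0.73 ± 0.17, adjusted p = 0.0059) and Cenpe (0.78 ± 0.19, adjusted p = 0.00754) had the smallest adjusted p-values. Ccne2 was lower (-0.44, adjusted p = 0.0499). When fat-1 PF 2 and 4, the Slc10a2-poor libraries, were left out as well, 4 members were higher in WT (Mki67, Top2a, Cenpe and Tpx2, against 3.41% of all genes), 0 in fat-1 (11.9%) and 7 were called on average (27.6%).

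**Figure D3:**
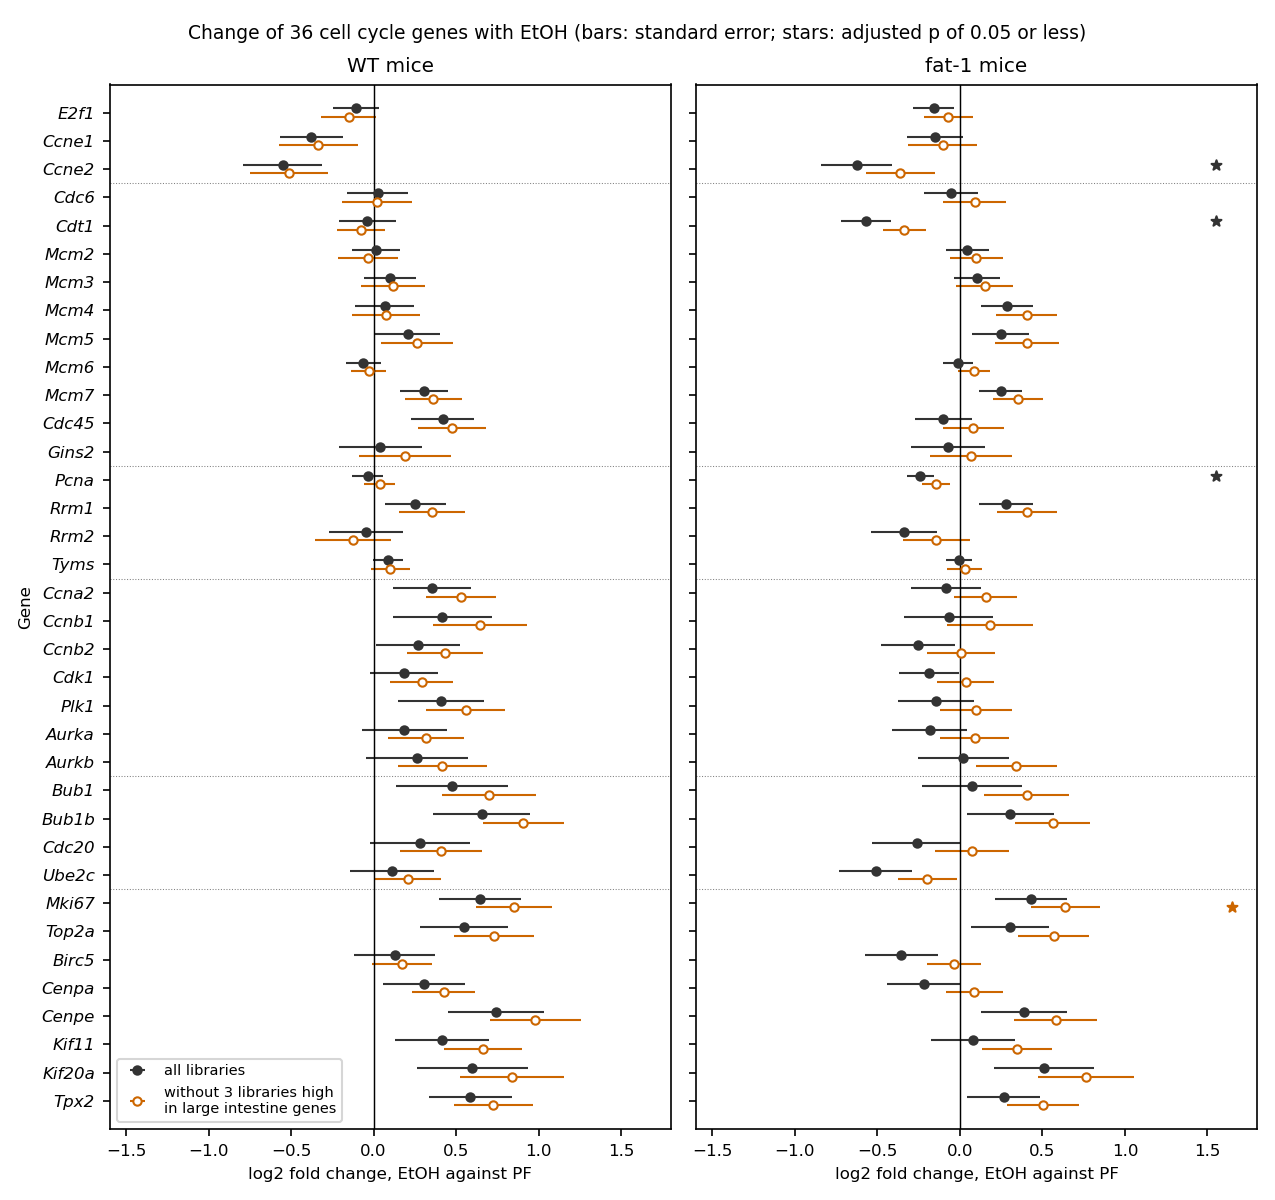
Log2 fold change of EtOH against PF with its standard error for each of the 36 genes (ordered by role) in WT mice and in fat-1 mice, in all libraries and without the 3 marker-rich libraries. In WT mice the values of the 19 G2 and mitosis genes lie between 0.11 and 0.74 in all libraries, and in fat-1 mice between -0.51 and 0.51.

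Among the G1/S control genes, Ccne2 (ENSMUSG00000028212, chr4:11191351-11204779, GRCm38) had the highest level per kilobase. It was at 15.8, 23.5, 24.2 and 15.9 CPM in WT PF and at 13.2, 13.2, 18.3 and 11.3 CPM in fat-1 PF libraries. In WT EtOH it was at 11.6, 12.8 and 16.2 CPM and in fat-1 EtOH at 10.2, 11.6, 6.72, 6.51 and 10.3 CPM. The highest 3 values were of PF mice and the lowest 2 of the marker-rich fat-1 EtOH 3 and 4. The diets overlapped in each genotype, while all 5 fat-1 EtOH values lay under the 3 of WT EtOH, the nearest at 11.57 and 11.64 CPM. The fall in fat-1 mice was -0.63 ± 0.21 (edgeR adjusted p = 0.0316), and the exact two-sided permutation test gave p = 0.0317 (n = 5 and 4, smallest possible 0.0159, adjusted over 20 such tests 0.211). The call was lost in 12 of 29 alternatives, among them those without fat-1 PF 2 (adjusted p = 0.0571), fat-1 PF 3 (0.121), fat-1 EtOH 3 (0.0777) or fat-1 EtOH 4 (0.0726), and the value was -0.36 without the marker-rich libraries (0.208). On average the change was -0.59 ± 0.16 (adjusted p = 0.0116). Of its exon bases, 17.4% are shared with Ints8 on the other strand, and the use of strand in counting was not stated. The related Ccne1 (-0.38 ± 0.19, adjusted p = 0.389 in WT) and the factor E2f1 (-0.11 ± 0.14, adjusted p = 0.772) were not called in either genotype.

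Among the licensing genes, Cdt1, which loads the helicase onto origins (ENSMUSG00000006585, chr8:122568015-122573554), was at 27.9, 27.2, 19.8 and 21.3 CPM in WT PF and at 28.0, 28.6, 25.4 and 27.7 CPM in fat-1 PF libraries. It was at 24.2, 24.6 and 21.4 CPM in WT EtOH and at 19.6, 20.9, 14.4, 14.3 and 23.4 CPM in fat-1 EtOH libraries. All 5 fat-1 EtOH values lay under all 4 of fat-1 PF, whereas the WT groups overlapped. Cdt1 fell by 0.57 on the log2 scale in fat-1 mice (SE 0.15, adjusted p = 0.00963, exact permutation p = 0.0159, the smallest these groups allow, 0.159 adjusted over 20 tests). In WT mice its value was -0.04 ± 0.17. The interaction, the difference between these 2 responses, was -0.53 ± 0.23 (adjusted p = 0.595), the only member under an unadjusted p of 0.05, so that a difference between genotypes was not shown. Without the 3 marker-rich libraries Cdt1 was at -0.34 in fat-1 mice (adjusted p = 0.065), and leaving out any 1 library did not end its call.

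Mcm6, a subunit of the helicase ring and the licensing gene with the highest level per kilobase (chr1:128331590-128359664), was at 66.3, 67.2, 69.6 and 65.6 CPM in WT PF and at 73.9, 58.4, 65.1 and 60.5 CPM in fat-1 PF libraries. It was at 64.1, 61.3 and 67.6 CPM in WT EtOH and at 66.6, 64.3, 66.6, 51.8 and 70.7 CPM in fat-1 EtOH libraries. All 4 groups overlapped, with fold changes of -0.06 ± 0.11 in WT and -0.01 ± 0.09 in fat-1 mice on the log2 scale (the latter 0.14 with upper-quartile scaling). Its partner Mcm7 (chr5:138164583-138172422) was at 33.2, 34.3, 33.7 and 34.9 CPM in WT PF, at 48.4, 29.6, 35.4 and 29.8 CPM in fat-1 PF, at 45.8, 38.4 and 41.8 CPM in WT EtOH and at 44.6, 42.4, 37.3, 40.5 and 48.1 CPM in fat-1 EtOH libraries. The 3 WT EtOH values all exceeded the 4 WT PF values, while fat-1 PF 1 (48.4 CPM) exceeded every other library. Mcm7 rose on average (0.28 ± 0.10, adjusted p = 0.0388) but was not called in WT (0.30 ± 0.15, adjusted p = 0.362) or fat-1 mice (0.25 ± 0.13, adjusted p = 0.142). The exact permutation p in WT was 0.0571, the smallest that 3 against 4 mice allow. Together with Cdc45, the helicase cofactor (0.42 ± 0.19, adjusted p = 0.342), Mcm7 was 1 of 2 members whose WT groups did not overlap, 5.56% of members against 24.3% of all genes tested.

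Pcna, the sliding clamp of the DNA polymerases (ENSMUSG00000027342, chr2:132249162-132253314), was at 68.8, 72.8, 66.4 and 73.1 CPM in WT PF and at 75.7, 86.0, 71.6 and 75.7 CPM in fat-1 PF libraries. It was at 68.8, 61.1 and 75.6 CPM in WT EtOH and at 67.9, 70.4, 62.0, 59.3 and 67.4 CPM in fat-1 EtOH libraries. The fat-1 groups did not overlap, the WT groups did, and fat-1 PF 2 was the highest of all libraries. Pcna fell by 0.24 in fat-1 mice on the log2 scale (SE 0.08, adjusted p = 0.0329, exact permutation p = 0.0159, 0.159 adjusted over 20 tests), and its value in WT mice was -0.04 ± 0.09. The call in fat-1 mice was lost in 20 of 29 alternatives, with -0.14 without the marker-rich libraries (adjusted p = 0.212), -0.09 with upper-quartile scaling (0.358) and -0.17 without fat-1 PF 2 (0.142). It was also lost without WT PF 1, 2 or 3, fat-1 PF 1 or 4, or fat-1 EtOH 3, 4 or 5 (0.0512 to 0.0941). With Cdt1 it made up the 2 of 36 members (5.56%) without overlap between the fat-1 groups, against 24% of all genes. The other genes of DNA synthesis, Rrm1 and Rrm2 of ribonucleotide reductase and Tyms, were not called in either genotype.

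Among the mitotic cyclins and kinases, Ccnb2, cyclin B2 (chr9:70407692-70421547), was at 24.8, 30.8, 26.0 and 27.2 CPM in WT PF and at 42.3, 22.04, 26.7 and 23.1 CPM in fat-1 PF libraries. It was at 35.4, 24.8 and 38.1 CPM in WT EtOH and at 32.4, 23.0, 17.5, 17.5 and 29.7 CPM in fat-1 EtOH libraries. The highest value was a fat-1 PF and the lowest 2 were the marker-rich fat-1 EtOH values, with overlap between all groups. Fold changes were 0.27 ± 0.25 in WT and -0.25 ± 0.22 in fat-1 mice, the latter 0.01 without the marker-rich libraries. Cdk1, the kinase it activates, and Plk1, Aurka and Aurkb were not called by edgeR in any comparison of all libraries.

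Cdc20, the activator of the anaphase-promoting complex (chr4:118432901-118437352), was at 29.2, 31.4, 27.4 and 34.4 CPM in WT PF and at 45.2, 22.6, 26.0 and 22.5 CPM in fat-1 PF libraries. It was at 38.0, 30.2 and 43.3 CPM in WT EtOH and at 36.01, 26.4, 12.5, 18.2 and 28.4 CPM in fat-1 EtOH libraries. Again fat-1 PF 1 was highest and fat-1 EtOH 3 lowest, and fold changes were 0.28 ± 0.30 in WT and -0.26 ± 0.27 in fat-1 mice, the latter 0.07 without the marker-rich libraries. Ube2c, the ubiquitin-conjugating enzyme of the same complex, had the lowest value of the 19 genes in fat-1 mice (-0.51 ± 0.22, adjusted p = 0.0827). Of its exon bases 22.8% are shared with Tnnc2 on the other strand.

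Mki67, the proliferation antigen Ki-67 that coats mitotic chromosomes (chr7:135689784-135716361), was at 108, 107, 107 and 127 CPM in WT PF and at 153, 79.3, 75.9 and 88.0 CPM in fat-1 PF libraries. It was at 190, 121 and 216 CPM in WT EtOH and at 162, 137, 106, 106 and 157 CPM in fat-1 EtOH libraries. Of the EtOH values, 2 of 3 in WT and 2 of 5 in fat-1 mice lay above all PF values of the genotype, while WT EtOH 2 (121 CPM) lay under WT PF 4 and fat-1 PF 1 (153 CPM) above 3 of the 5 fat-1 EtOH mice. Mki67 rose on average (0.54 ± 0.17, adjusted p = 0.0211) and was not called in WT (0.65 ± 0.25, adjusted p = 0.269) or fat-1 mice (0.43 ± 0.22, adjusted p = 0.135). Without fat-1 PF 1, 9 members were called in fat-1 mice, against 37% of all genes, Mki67 among those that were higher.

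Cenpe (chr3:135212537-135273611) was at 15.4, 15.3, 13.4 and 20.1 CPM in WT PF and at 23.8, 9.69, 14.5 and 12.2 CPM in fat-1 PF libraries. It was at 29.5, 17 and 33.9 CPM in WT EtOH and at 21.8, 19.6, 13.5, 18.4 and 25.5 CPM in fat-1 EtOH libraries. WT EtOH 3 was highest and fat-1 PF 2 lowest, and the diets overlapped in each genotype. Cenpe rose on average (0.56 ± 0.20, adjusted p = 0.037). Top2a, which untangles sister chromatids and has the highest level per kilobase of the chromosome genes (chr11:98992943-99024189), was at 102, 110, 96.7 and 130 CPM in WT PF, at 144, 65.3, 90.1 and 85.5 CPM in fat-1 PF, at 164, 116 and 200.4 CPM in WT EtOH and at 151, 128, 90.7, 81.9 and 144 CPM in fat-1 EtOH libraries. Here too the groups overlapped, and Top2a was not called (0.55 ± 0.27, adjusted p = 0.37 in WT and 0.30 ± 0.24, adjusted p = 0.324 in fat-1 mice).

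**Figure D4:**
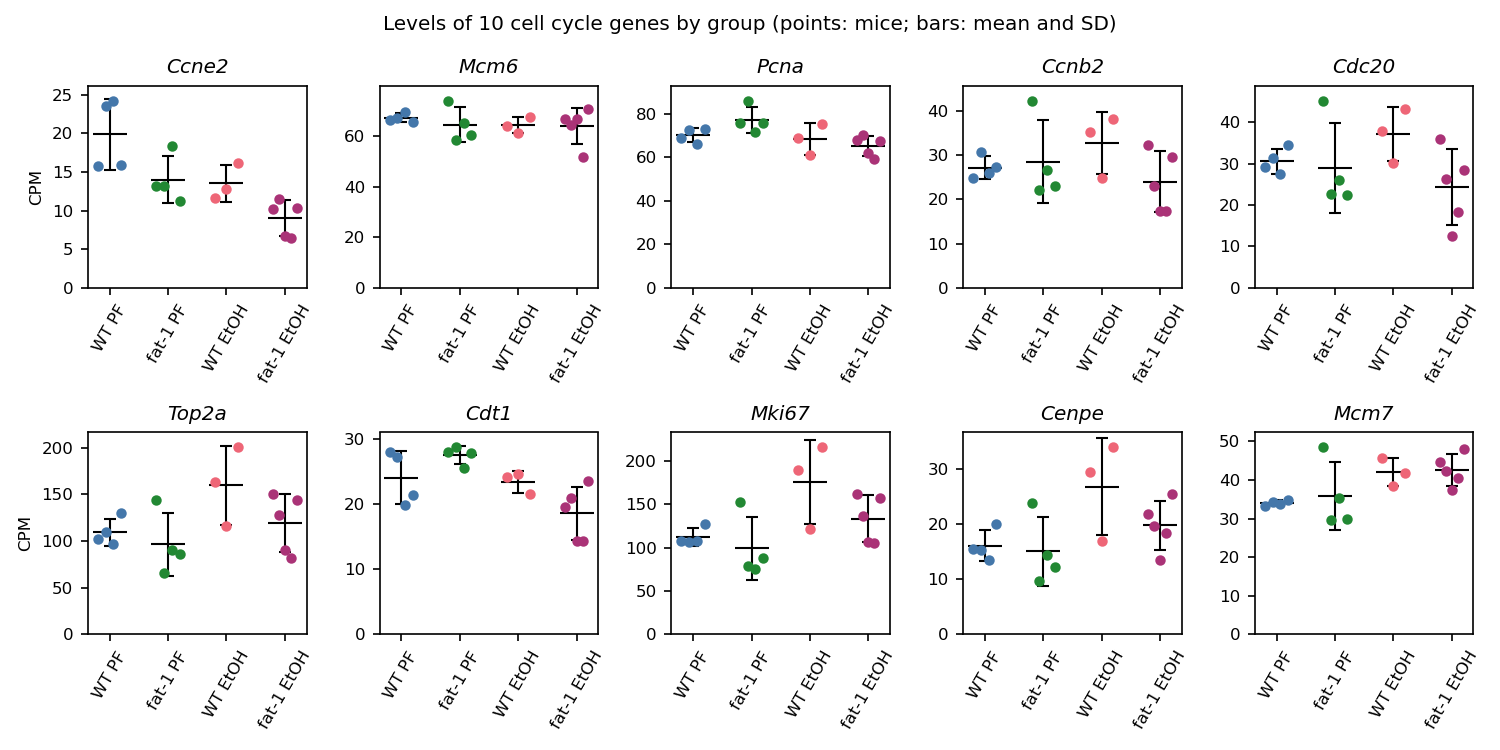
CPM of 10 genes in each library (points, 1 panel per gene), with the mean and SD of each of the 4 groups. Cdt1 (14.3 to 23.4 CPM) and Pcna (59.3 to 70.4 CPM) in fat-1 EtOH lie under all fat-1 PF values, and the other genes overlap between the diets in fat-1 mice.

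The genotypes were compared within each diet, on the same libraries as the comparisons of the diets. On the PF diet, fat-1 against WT, 0 members and 0% of all genes tested were called by edgeR, and 1 member, Ccne2 (-0.50 ± 0.22, adjusted p = 0.365), was under an unadjusted p of 0.05, as were 12.7% of all genes. Cdt1 had the largest value (0.19 ± 0.16, adjusted p = 0.671). Of the 36 genes 12 were positive, with a median of -0.06, and 0 had groups without overlap, against 6.87% of all genes. That median was -0.25 without fat-1 PF 1 (2 positive), 0.04 without fat-1 PF 2 (23 positive) or WT PF 4 (20 positive) and -0.12 with upper-quartile scaling (8 positive), so that its direction is not fixed.

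On the EtOH diet all 19 G2 and mitosis genes had a negative log2 fold change of fat-1 against WT mice, with a median of -0.44 (-0.27 without WT EtOH 3 to -0.62 without WT EtOH 2), and 4 of the 17 other genes were positive (median -0.12, all genes 0.04). Of the members 0 were called, against 0.00724% of all genes, and 3 were under an unadjusted p of 0.05, Ccne2 (-0.58), Cdc45 (-0.49) and Cdk1 (-0.43), where 4.86% of all genes were. Cdc20 had the smallest value (-0.61 ± 0.29, adjusted p = 0.757) and Mcm4 the largest (0.08 ± 0.17, adjusted p = 0.881). Ccne2 and Cdc45 were lower in all 5 fat-1 than in all 3 WT mice, 5.56% of members against 2.45% of all genes. Without the 3 marker-rich libraries the median of the 19 genes was -0.39, with 0 positive.

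The interaction of genotype and diet sets the EtOH response of fat-1 mice against that of WT mice. It was called for 0 members and 0% of all genes, with 1 member, Cdt1, and 8.26% of all genes under an unadjusted p of 0.05. The G2 and mitosis median was -0.37 (0 of 19 positive), from -0.15 without fat-1 PF 1 (4 positive) and -0.23 without WT EtOH 3 to -0.60 without WT EtOH 2, and that of G1/S and S phase -0.06 (7 of 17 positive), the latter 0.04 with upper-quartile scaling and 0.13 without fat-1 PF 1. Values ran from Ube2c (-0.62 ± 0.34, adjusted p = 0.599) to Ccne1 (0.23 ± 0.26, adjusted p = 0.762). In all 3 of these comparisons DESeq2 and limma voom called 0 members as well. Of the 13811 genes, DESeq2 called 189 for the genotypes on PF, 5 on EtOH and 0 for the interaction, and limma voom 31, 1 and 0.

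The log2 fold changes moved with the length of the genes. Exons ran from 1531 bases in Ccnb2 to 11012 bases in Rrm1. In fat-1 mice the correlation between log2 fold change and log2 exon length over the 36 genes, which share their libraries, was 0.60, and the median was -0.17 in the 18 shorter and 0.08 in the 18 longer genes. In WT mice it was 0.37, with medians of 0.12 and 0.36. Over all genes tested the slope of log2 CPM deviation on log2 exon length was -0.173 to -0.0016 in PF and 0.0135 to 0.153 in EtOH libraries, so that length cannot be told apart from the diet. With an offset for exon length, chosen after seeing the data, Cdt1 alone was called in fat-1 mice, and Ccne2 and Mcm7 on average. The same fit called 34.8% and 32.4% of all genes.

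**Figure D5:**
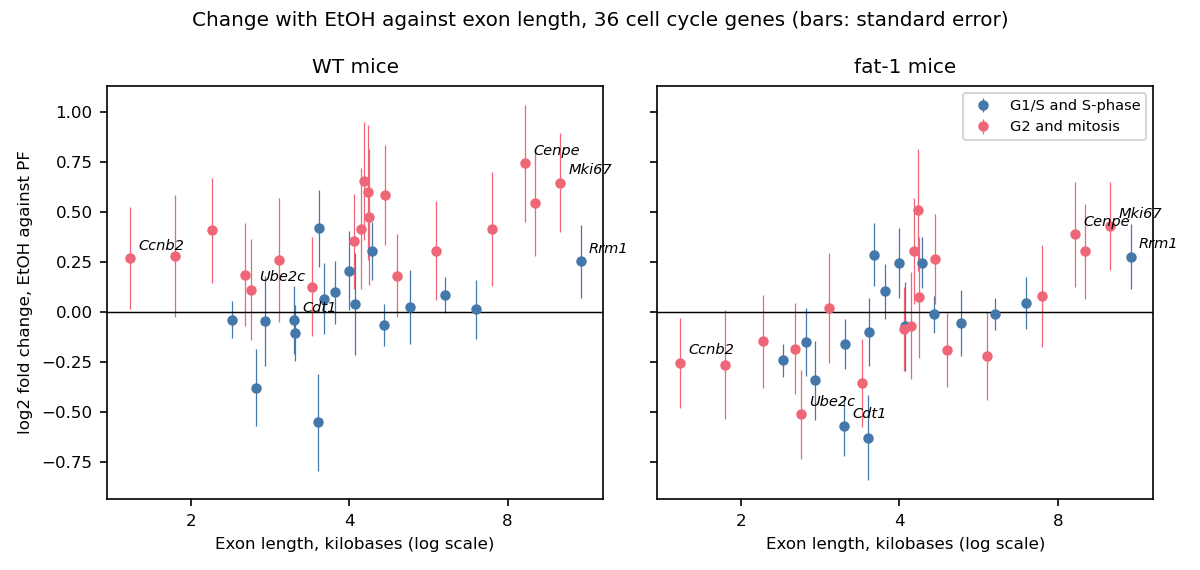
Log2 fold change of EtOH against PF (vertical axis) of the 36 genes against the length of their exons in kilobases (horizontal log axis). WT and fat-1 mice are shown, with G1/S and S-phase genes and G2 and mitosis genes marked apart. In WT mice the long genes Mki67, Top2a and Cenpe lie at 0.55 to 0.74, while Rrm1, the longest, lies at 0.25 and Mcm2 (6956 bases) at 0.01. In fat-1 mice the 18 shorter genes have a median of -0.17 and the 18 longer ones of 0.08.

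Other genes of the same pathways were counted in the same way. In WT mice, of 52 other mitosis genes 50 were positive (median 0.35) and 0 called, with 10 under an unadjusted p of 0.05 (all genes 14.1%), from Cenpm (-0.11) to the kinetochore protein Cenpf (0.89 ± 0.28, adjusted p = 0.208). Of 45 other S-phase genes 29 were positive (median 0.06) and 0 called, with the largest value in Brca1 (0.40). In fat-1 mice 2 of the mitosis genes rose, Cenpf (0.68 ± 0.26, adjusted p = 0.0498) and Sgo2a (0.77 ± 0.26, adjusted p = 0.0314), and 1 fell, Hjurp (-0.49 ± 0.18, adjusted p = 0.0465), where 37.4% of all genes were called. Without the 3 marker-rich libraries Sgo2a (adjusted p = 0.0788) and Hjurp (0.11) lost their calls, Hjurp also with upper-quartile scaling (0.146), and Cenpf lost its call when the Slc10a2-poor libraries were left out as well (0.21). Of the S-phase genes 3 rose (Cdc7, Pola1 and Prim2, from the initiating kinase and the primase complex) and 4 fell, against the same 37.4%. Those that fell included Rpa2, Usp1 and Gmnn, geminin, the inhibitor of Cdt1 (-0.73, adjusted p = 0.00067). Gmnn also fell without the 3 marker-rich libraries (-0.64, adjusted p = 0.0077), where Rpa2 and Usp1 were not called, and the 3 that rose were not called once the Slc10a2-poor libraries were left out as well. On average 5 of the 52 mitosis genes were higher and 0 lower in all libraries (35.9% of all genes called), and 20 and 0 without the 3 marker-rich ones (32.9%). When the Slc10a2-poor libraries were left out as well, 10 were higher and 0 lower (27.6%).

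The lists that follow stand against 0.0796% of all genes called in WT, 37.4% in fat-1 mice and 35.9% on average. Among the 7 G1 cyclins and CDKs, 0 were called in WT mice, from Cdc25a, the phosphatase that activates CDKs (-0.41), to Cdk6 (0.51). In fat-1 mice Cdk6 (0.98 ± 0.19, adjusted p = 0.00188) and Cdk2 (0.34) rose and Cdc25a fell (-0.43 ± 0.13, adjusted p = 0.0178), and all 3 were also called without the marker-rich libraries. When the Slc10a2-poor libraries were left out as well, Cdk6 (adjusted p = 0.0947) and Cdk2 (0.089) lost their calls, as Cdc25a did with upper-quartile scaling (0.109) and Cdk6 with the exon length offset without the marker-rich libraries (0.0522). Of 16 pocket proteins, E2F factors and their partners, 0 were called in WT mice (Lin37 -0.32 to E2f8 0.39) and Tfdp2 fell in fat-1 mice (-0.41 ± 0.12, adjusted p = 0.0163), where E2f5 was at 0.50. The call of Tfdp2 was lost with upper-quartile scaling (adjusted p = 0.0696) and without the marker-rich libraries (0.101). Of 7 CDK inhibitors 0 were called in either genotype, with Cdkn1a at -0.26 and Cdkn2a at 0.77 in WT and Cdkn2b at -0.37 and Cdkn2a at 0.51 in fat-1 mice. On average Cdkn1b, p27, was higher (0.22, adjusted p = 0.0278) and Cdkn1a, p21, lower (-0.27, adjusted p = 0.0481). Cdkn1a lost its call with upper-quartile scaling (adjusted p = 0.164) and in the 4 fits without the marker-rich libraries (0.0669 to 0.293), and Cdkn1b lost its call when the Slc10a2-poor libraries (0.0508) or fat-1 EtOH 5 (0.0618) were left out as well. Among the 15 crypt base stem cell markers 0 were called in WT mice, and 4, Znrf3, Cd44, Prom1 and Slc12a2, were higher in fat-1 EtOH than in fat-1 PF mice. Prom1 and Slc12a2 were highest in the marker-rich fat-1 EtOH 3 and 4.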

How the data were processed

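The table analysed holds raw counts of reads per Ensembl gene in 16 libraries. The authors deposited these counts, which htseq made from tophat2 alignments to mm10, without normalization. Version, settings and strand use of the counting are not given in the sources used here, although the library kit was stranded. Symbols, positions and exon lengths came from GENCODE M21 (GRCm38). Low counts were filtered with filterByExpr, libraries were scaled by the trimmed mean of M-values (TMM) and 13811 genes were tested in 1 fit of all 16 libraries with edgeR 4.0.16 (R 4.3.3), using the robust quasi-likelihood test with Benjamini-Hochberg adjustment over all genes. An adjusted p of 0.05 or less was called, and errors of log2 fold changes are standard errors of the fit. Single genes were also compared by an exact two-sided permutation test of log2(CPM + 0.5), and log2 CPM used a prior count of 2. Values of every library are given for the gene with the highest level per kilobase in each role and for each gene called, and the largest and smallest change for each comparison and list, except 1 gene that is not reported here.

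Alternatives were DESeq2 1.42.0, limma voom 3.58.1, other scalings and filters, only the groups compared, a replicate block, each library left out, and libraries with markers of other gut regions left out. An offset for exon length, the same offset without the 3 libraries rich in large intestine markers, and the exclusion of 1 lymphoid-rich library were chosen after seeing the data. On simulated data for 13811 genes, the test between WT groups called 51 of 95 genes changed 2-fold, 91 of 105 changed 4-fold and 7 of 13611 unchanged genes. Between fat-1 groups these were 70 of 112, 76 of 88 and 9. In each simulation all but 200 genes had the same mean in every library, with no libraries rich in markers of other gut regions. The simulations thus give no rate for the smaller changes of the members in these libraries. No 2 libraries of a group agreed within counting noise (smallest chi-square per degree of freedom 7.57). The members and all gene lists were chosen with earlier results of these data known.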

Additional observations from a re-analysis of the deposited data

Results flagged for a closer look

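Among the values of 72 groups of 4 or 5 libraries, 3 had 1 library whose gap to the nearest other passed the limit of Dixon's test, which by chance is passed by about 1 in 20 groups. Mki67 in WT PF 4 was at 6.99 log2 CPM, against 6.74 to 6.76 in the other 3 WT PF libraries. The mean of the Paneth cell markers in WT PF 2 was 10.76 log2 CPM, against 10.41 to 10.43 in the other 3. That of the small intestinal enterocyte markers in WT PF 4 was 10.76 log2 CPM, against 11.26 to 11.31. WT PF 4 thus held the highest Mki67 and the lowest enterocyte level of its group, and their relation was not tested.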

How the results depend on the processing

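The number of members called depended on the processing where EtOH was compared with PF, and stayed at 0 in both genotype comparisons and the interaction under every alternative. In WT mice (0 called) limma voom gave 13 and a fit of only the 2 groups 1 (Tpx2), where they called 20.3% and 8.32% of all genes. Leaving out the 3 libraries rich in large intestine markers (marker-rich) and the 2 Slc10a2-poor ones gave 4 (3.41%). In fat-1 mice (3 called) a fit of only the 2 groups gave 1 (23.2% of all genes) and leaving out the 3 marker-rich libraries 1 (29.7%). Leaving out the 2 Slc10a2-poor as well gave 0 (11.9%) and the lymphoid-rich library instead 0 (17.5%). The exon length offset gave 1 (34.8%) and that offset without the 3 libraries 0 (24.9%). On average (4 called) leaving out the 3 marker-rich libraries gave 11 (32.9% of all genes). Leaving out the 2 Slc10a2-poor as well gave 7 (27.6%) and the lymphoid-rich library instead 7 (28.8%). The exon length offset gave 2 (32.4%) and that offset without the 3 libraries 8 (27.7%). DESeq2 gave 7 (39%), limma voom 11 (42.2%) and upper-quartile scaling 9 (38.7%). The cause was not tested. Leaving out 1 library gave 0 to 0 calls in WT (0% to 0.479% of all genes). It gave 1 to 9 in fat-1 (28.5% to 39.4%) and 1 to 10 on average (26.9% to 38.1%). The 9 and 10 came without fat-1 PF 1. Without fat-1 PF 2, fat-1 EtOH 3 or fat-1 EtOH 4 Cdt1 alone was called in fat-1 mice. On average 8 were called without WT EtOH 2, 7 without fat-1 EtOH 3, 1 without WT EtOH 1 or 3, and 2 without WT PF 1 or 2 or fat-1 PF 2, 3 or 4. The replicate numbers did not pair the mice (mean correlation of deviations -0.0225 over 21 pairs with the same number, 0.007 over 74 others). With a replicate block 0, 2 and 4 members were called, against 0.13%, 34.4% and 35% of all genes. For the log2 fold changes of named genes, 582 of 692 alternatives kept direction and call, 63 lost the call, 14 gained one and 33 turned the direction of a value that was not called. In WT mice Pcna was then at 0.013 with upper-quartile scaling, 0.037 without the 3 marker-rich libraries, 0.048 without the Slc10a2-poor and 0.037 without the lymphoid-rich ones as well, 0.051 with the exon length offset and 0.15 with both offset and exclusion (-0.11 to 0.039 leaving out 1 library), and Cdt1 at 0.013 with upper-quartile scaling and 0.015 with the offset (-0.11 to 0.048). In fat-1 mice Mcm6 was at 0.041 with limma voom, 0.14 with upper-quartile scaling, 0.032 with at least 10 counts in every library, 0.01 with only the 2 groups, 0.085 without the 3 libraries, 0.050 without the lymphoid-rich one as well and 0.046 with offset and exclusion (-0.042 to 0.072). There Ccnb2 was at 0.008 without the 3 libraries and 0.20 with the offset as well (-0.37 to 0.015), and Cdc20 at 0.039 with limma voom, 0.075 without the 3 libraries, 0.12 without the lymphoid-rich one as well and 0.23 with offset and exclusion (-0.44 to 0.047). Pcna in fat-1 mice lost its call in 20 of 29 alternatives, Ccne2 in 12 and Cdt1 in 4. Groups of 3 to 5 mice and the gut position of the segment limit all these comparisons.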
